A study of Homo sapiens with 3 samples.

Results

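Deubiquitinase mRNAs were examined for their recovery with DDX6 in MOLM-13 cells. The genes were chosen by symbol: VCPIP1, every USP gene with a number and every OTUD gene with a number, without the Y-linked USP9Y, the pseudogene USP41 and antisense genes. The rule gave 58 genes of the 36817 identifiers in the deposited count tables, made up of 50 USP genes, 7 OTUD genes and VCPIP1. Of these 58 genes, 48 carried enough exonic reads to be tested, and the other 10 are listed further on.

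Deubiquitinases are proteases that cut ubiquitin from proteins or trim ubiquitin chains, and so oppose the ubiquitin ligases. The USP class is the largest, and the OTU class, to which the OTUD genes and VCPIP1 belong, often prefers particular chain types. DDX6 is a DEAD-box RNA helicase of P-bodies, cytoplasmic granules that hold translationally repressed mRNAs together with decay factors. In eCLIP, protein is crosslinked to RNA with UV light, the RNA is trimmed with RNase, the protein is immunoprecipitated (IP), and the RNA fragments that come with it are sequenced. An input library, prepared with no antibody step, serves as the reference.

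The study made 2 DDX6 IP libraries and 1 input library from MOLM-13, an established human acute myeloid leukaemia line that carries no treatment or genetic change in the labels. Both IP libraries used a DDX6 antibody from Novus, and the labels list no antibody for the input. Whether separate cultures were used for the IP libraries is not stated. The p-values therefore reflect the scatter of 2 IP libraries alone, possibly a technical one, and the single input is assumed to vary as they do. The libraries are bulk, so a difference in the number of cells that hold an mRNA and in its amount per cell cannot be told apart.

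The IP replicate 1 library held 4643494 counted reads, IP replicate 2 held 1244213 and the input 7807540. Exonic reads made up 67.6% and 62.6% of the IP libraries but 30.7% of the input. Of 16 myeloid markers 14 were detected well enough to test, and the 16 together summed to 2141 and 2488 CPM (exonic counts scaled by library size and edgeR's TMM factor) in the IP libraries and 3304 CPM in the input. The 2 not tested, CD14 and KIT, had at most 4 reads in any library. Marker lists of B cells, T cells, red cells, megakaryocytes, epithelium, fibroblasts and liver summed to between 0 and 25.6 CPM each, with COL1A1 the most abundant at 82, 10 and 27 reads.

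Exonic reads of deubiquitinase genes were, more often than not, more frequent in the DDX6 IP than in the input. In the edgeR fit to the exonic counts of all 10392 genes tested, 15 of the 48 tested deubiquitinase genes rose in the IP (31.3%) against 16.7% of all genes tested. Only USP49 fell in that fit (2.08% of the 48, against 11.4% of all genes). The median log2 fold of the tested deubiquitinase genes was 0.39, against 0.00 for all genes, and 36 of the 48 lay above 0. The excess over all genes depended on how the reads were treated. With no read filter 11 of 54 were higher (20.4%, against 4.91% of all genes). That background holds 26782 genes, most of which fail the read filter, so these shares are not like for like. DESeq2 called 4 of 44 higher (9.09%, against 7.10% of all genes), namely USP42, VCPIP1, USP34 and USP32, and with intronic reads added 9 of 50 were higher (18%, against 19.6% of all genes) and 9 lower (18%, against 18.6% of all genes).

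In 30 of the 48 genes both IP libraries exceeded the input in TMM-scaled CPM, and in 11 both lay below it. The same counts over all genes tested were not computed, so these have no background here. The log2 folds of the IP replicates, each taken against the input, had the same sign in 41 of the 48 genes. They differed by a median of 0.29, and by 0.81 at most. Both folds share the single input, so its error moves them the same way and their signs are not independent.

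**Figure D1:**
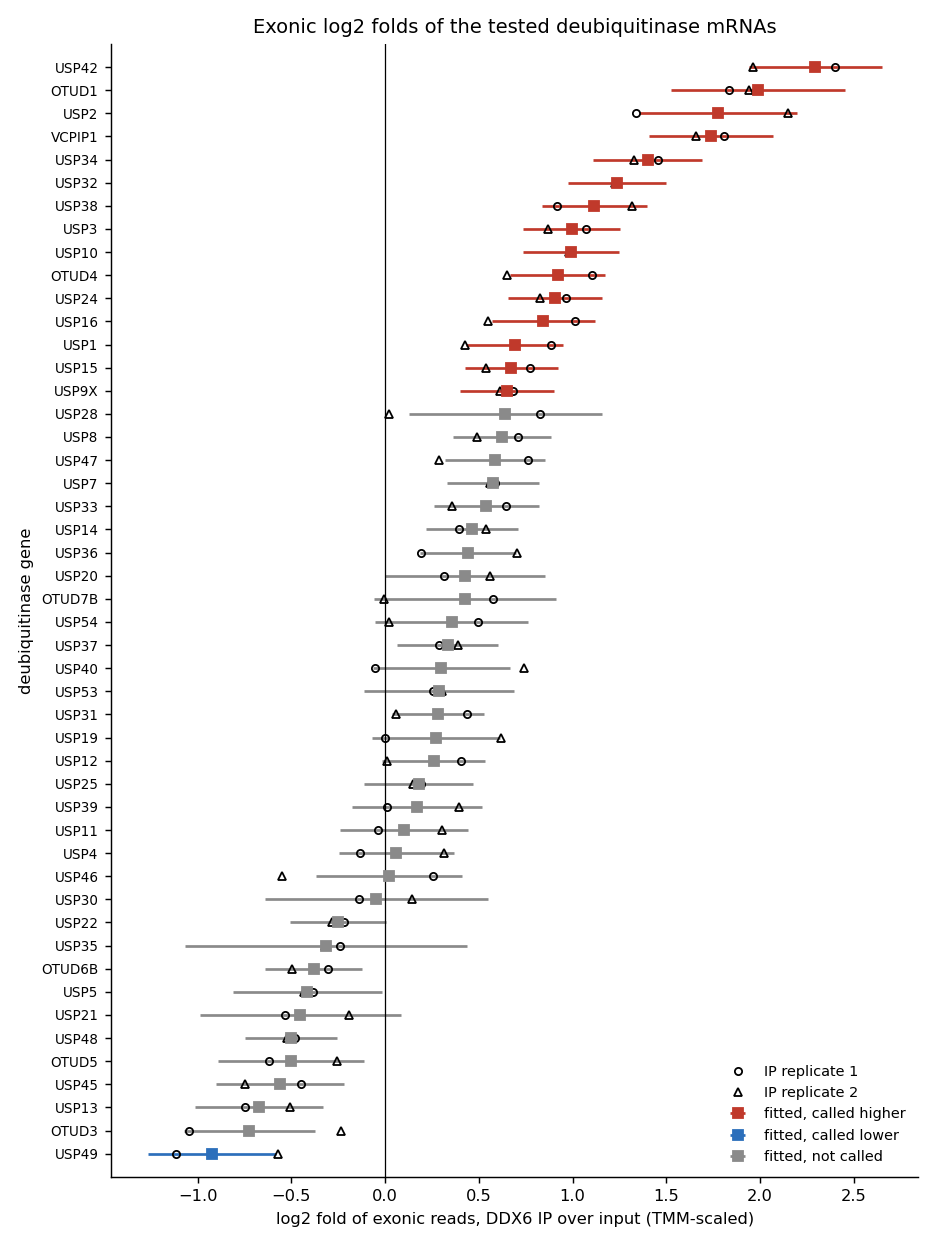
Exonic log2 fold of DDX6 IP over input for the 48 tested deubiquitinase genes, sorted by the fitted value (squares, with bars of 1 SE). Circles and triangles are IP replicates 1 and 2 against the single input, with 2 reads added as a prior. The 15 genes called higher run from 0.65 for USP9X to 2.30 for USP42, and USP49 at −0.92 is the gene called lower.

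VCPIP1 carried the most exonic reads of any deubiquitinase gene in both IP libraries, in counts not scaled by gene length, whereas in the input USP22 had more. VCPIP1 encodes a deubiquitinase that works with the ATPase VCP (p97) in the reassembly of Golgi membranes after mitosis. Its exonic counts were 3647 in IP replicate 1, 813 in IP replicate 2 and 717 in the input, which is 1139, 1026 and 324 CPM, so the IP libraries lay close together and far above the input. The log2 fold was 1.74 ± 0.33 (SE), with an adjusted p of 2.48e-05 in edgeR's quasi-likelihood test, a value above that of 96.4% of the genes tested. VCPIP1 held 17.2% and 16.6% of the exonic deubiquitinase reads in the IP libraries and 8.05% in the input.

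Among the genes tied to p53, MDM2 and MYC stability (USP2, USP7, USP10, USP28, USP36 and USP42), 3 of 6 rose, the other 3 did not pass, and the median log2 fold was 0.82. USP42, known as a p53 deubiquitinase, had 296, 54 and 37 exonic reads (IP replicate 1, IP replicate 2, input), or 92.4, 68.1 and 16.7 CPM. Both IP libraries stood clear of the input, at a log2 fold of 2.30 ± 0.35 (edgeR adjusted p = 3.61e-07), the largest of the deubiquitinase genes. USP2, which acts on MDM2 and cyclin D1, had 31.2 and 55.5 CPM in the IP libraries and 11.8 CPM in the input. Its log2 fold was 1.78 ± 0.42 (edgeR adjusted p = 6.51e-04), with the IP replicates further apart than for most genes, at 1.34 and 2.15. USP10, which deubiquitinates p53 and binds the stress granule protein G3BP1, gave nearly equal IP values of 190.2 and 189.3 CPM against 95.4 CPM in the input. This is a log2 fold of 0.99 ± 0.26 (edgeR adjusted p = 0.00197), which turned to −0.40 with intronic reads added. USP7, the herpesvirus-associated deubiquitinase of MDM2, had IP values of 226.7 and 222.1 CPM and an input value of 150.6 CPM. The USP7 log2 fold of 0.58 ± 0.25 did not pass (edgeR adjusted p = 0.0707). USP36, a nucleolar enzyme, at 0.44, and USP28, a MYC-stabilising enzyme, at 0.64 did not pass either.

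Of the 8 histone H2A and H2B deubiquitinases listed, 5 could be tested, and they included the gene that fell. USP3, which removes ubiquitin from H2A, had 184.9 and 160.3 CPM in the IP libraries against 87.3 CPM in the input, a log2 fold of 0.99 ± 0.26 (edgeR adjusted p = 0.00214), which turned to −0.41 with intronic reads added. USP16, an H2A deubiquitinase of mitosis, had 132.4 and 95.9 CPM against 65.1 CPM, a log2 fold of 0.84 ± 0.28 (edgeR adjusted p = 0.0146), with 1.01 in IP replicate 1 and 0.55 in IP replicate 2. USP49, an H2B deubiquitinase, went the other way. It had 23.1 and 34.1 CPM in the IP libraries and 51.1 CPM in the input, a log2 fold of −0.92 ± 0.34 (edgeR adjusted p = 0.0332). Taken against the input alone, IP replicate 1 gave −1.11 and IP replicate 2 gave −0.57. USP22, the deubiquitinase of the SAGA coactivator, was abundant, at 342.0 and 326.8 CPM in the IP and 398.5 CPM in the input, and its log2 fold of −0.25 ± 0.26 did not pass. The log2 fold of USP21 was −0.45 ± 0.54, and USP27X, USP44 and USP51 had too few reads to test.

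USP1, which acts on FANCD2 and PCNA in DNA repair, was the one gene of the DNA repair list to rise, out of 5 tested. Its 345.7 and 251.1 CPM in the IP libraries lay above the 186.8 CPM of the input, a log2 fold of 0.69 ± 0.26 (edgeR adjusted p = 0.0351), with 0.88 in IP replicate 1 and 0.42 in IP replicate 2. USP12 and USP46, which share the cofactor WDR48 with USP1, had log2 folds of 0.26 ± 0.27 and 0.02 ± 0.39, and neither passed. Of the other repair genes, USP47 had a log2 fold of 0.58, USP11 of 0.10, USP48 of −0.50 and USP45 of −0.56, all without passing.

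In the NF-kappa-B and TNF list, 2 of the 7 tested genes rose, USP2 and USP15. USP15, which acts in TGF-beta signalling and is related in sequence to USP4, had 237.7 and 201.9 CPM in the IP libraries and 138.9 CPM in the input, a log2 fold of 0.67 ± 0.25 (edgeR adjusted p = 0.0337), which turned to −0.42 with intronic reads added. Of the others in the list, USP25 had a log2 fold of 0.18 and USP31 of 0.28, and neither passed. USP4 itself had a log2 fold of 0.06 ± 0.31, with IP replicates on either side of 0. USP39, a spliceosome protein without deubiquitinase activity, had 0.17 ± 0.35. USP53 and USP54, placed in the same list as USP39, had 0.29 and 0.35. None of these 3 genes passed the exonic edgeR test, adjusted or at an unadjusted p under 0.05. In the region fit described below, the coding rows of USP39 (0.97, edgeR adjusted p = 0.0332) and USP54 (1.23, edgeR adjusted p = 0.0273) did pass. The coding row of USP53 (0.73) did not. Of all coding rows in that fit 51.2% rose, at a median log2 fold of 1.02, so a pass there is common. USP39 lay below that median.

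USP9X, a large enzyme that stabilises MCL1, was the gene called higher with the smallest fold, at 283.9 and 271.3 CPM against 176.9 CPM in the input, a log2 fold of 0.65 ± 0.25 (edgeR adjusted p = 0.0413). The calls of USP16, USP1, USP15, USP9X and USP49 were lost with DESeq2, with a minimum of 30 reads and with no read filter. USP20, USP33 and USP37, listed with USP9X for roles at centrosomes and in mitosis, had log2 folds of 0.43, 0.54 and 0.33 and did not pass.

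OTUD1, an OTU enzyme that acts in innate immune signalling, had few reads, 101, 27 and 18, which is 31.5 and 34.1 CPM in the IP libraries against 8.14 CPM in the input. Its log2 fold was 1.99 ± 0.46 (edgeR adjusted p = 5.18e-04). OTUD4, an RNA-binding adaptor of alkylation repair, had 293.9 and 214.5 CPM against 136.2 CPM, a log2 fold of 0.92 ± 0.25 (edgeR adjusted p = 0.00359). The other tested OTUD genes did not pass. OTUD7B had a log2 fold of 0.42, OTUD6B of −0.38, OTUD5 of −0.50 and OTUD3 of −0.72, the last with replicates at −1.05 and −0.23. An antisense gene, OTUD6B-AS1, had 813, 134 and 173 exonic reads, and whether the counting used strand is not given in the sources used here, so the OTUD6B counts are uncertain.

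Of the called genes outside the role lists, USP34, a very large enzyme that acts on axin in Wnt signalling, had 602.1 and 550.2 CPM in the IP libraries against 218.5 CPM in the input. Its log2 fold was 1.40 ± 0.29 (edgeR adjusted p = 1.06e-04). USP32, a membrane-anchored enzyme of the endosomal system, had 184.9 and 184.2 CPM against 78.3 CPM, a log2 fold of 1.24 ± 0.26 (edgeR adjusted p = 1.55e-04). With intronic reads added to the counts, the log2 fold of USP34 was −0.05 and that of USP32 −0.57, the latter called lower (edgeR adjusted p = 0.0384). USP38, which acts in interferon signalling, had 107.7 and 142.6 CPM against 56.5 CPM, a log2 fold of 1.12 ± 0.28 (edgeR adjusted p = 0.00135). USP24, another very large enzyme, had 248.9 and 225.9 CPM against 127.1 CPM, a log2 fold of 0.91 ± 0.25 (edgeR adjusted p = 0.00376). In these 4 genes the IP libraries lay above the input without overlap. USP8, the deubiquitinase of endosomal receptor sorting, had 0.62 ± 0.26 and did not pass (edgeR adjusted p = 0.0618), and USP14, which binds the proteasome, had 0.46 ± 0.25 and did not pass. USP5 and USP13, which recycle free ubiquitin chains, had −0.42 ± 0.40 and −0.68 ± 0.34. USP19 at the endoplasmic reticulum had 0.27, and USP30 on mitochondria had −0.05. USP40 had 0.30 and USP35 −0.32, and none of these last 6 genes passed.

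The other 10 deubiquitinase genes were not tested. OTUD7A, USP6, USP26 and USP50 had 0 exonic reads in all 3 libraries. USP29 had 1 read in IP replicate 1 and none elsewhere. USP18, the ISG15 protease, had 4, 2 and 3 reads, USP27X 15, 5 and 6, USP43 6, 1 and 19, USP44 6, 1 and 4, and USP51 12, 2 and 7. USP6 is a hominoid relative of USP32 and USP27X of USP22, and how reads that match several genes were counted is not given in the sources used here, so their values are uncertain.

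Coding sequence held the largest share of the reads recovered with DDX6. Of all genic reads of the 58 genes, 48.5% in IP replicate 1 (95% exact interval 47.9 to 49.1), 47.1% in IP replicate 2 (45.9 to 48.3) and 10.5% in the input (10.2 to 10.9) lay in coding sequence. For 3′UTRs the shares were 27.4%, 23.2% and 10.3%, and for 5′UTRs 1.94%, 2.85% and 1.08%. Introns went the other way, with 21.4% and 26.3% in the IP libraries and 77.7% in the input. Over all genes the intron shares were 23.7%, 27.3% and 63.2%. The shares of all genes are not like for like with these, because their total holds many reads of non-coding exons and non-coding introns. In IP replicate 2 such reads made up 8.95% and 3.92% of the total, against 0.574% and 0.0302% for the deubiquitinase genes. For this reason no difference from all genes is read from these shares, in the input or in the IP libraries. The intervals given for coding sequence cover counting error only.

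A second edgeR fit took coding sequence, 5′UTR, 3′UTR, intron and non-coding exon of each gene as separate rows. In coding sequence 34 of 43 deubiquitinase genes rose (79.1%, against 51.2% of all genes) and none fell (against 0.208%), with none lower at an unadjusted p under 0.05 or with DESeq2. The median coding log2 fold was 1.34, against 1.02 over all genes. In 3′UTRs 15 of 45 rose (33.3%, against 23.9% of all genes) and none fell (against 6.83%), again with none lower at an unadjusted p under 0.05 or with DESeq2. The median there was 0.52, against 0.28 over all genes. DESeq2 called 9 of these 3′UTRs higher, the fit with no read filter also 9, and library-size scaling 27. In introns 42 of 49 fell (85.7%, against 83% of all genes) and none rose (against 2.57%), with none higher at an unadjusted p under 0.05 or with DESeq2. The intron median was −2.07, against −1.93 over all genes. The coding and intron rows share 1 scaling, so these folds are relative to the mean of exonic and intronic rows.

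**Figure D2:**
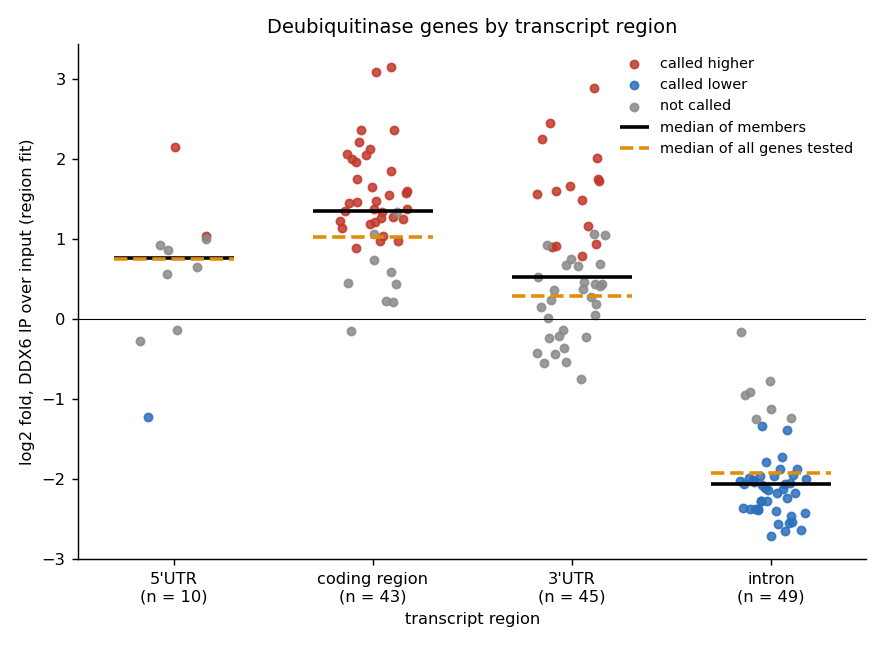
Region log2 fold of DDX6 IP over input for each tested deubiquitinase gene (points, coloured by the edgeR call), with the median of these genes (black) and of all genes tested (orange, dashed). Coding regions sit above 0 with the exception of USP21, introns lie below 0, and 3′UTRs spread to both sides with a median of 0.52.

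The largest coding fold was that of VCPIP1, with 1832, 461 and 218 coding reads (IP replicate 1, IP replicate 2, input), or 371.7, 360.4 and 41.5 CPM. These CPM use the library sizes and TMM factors of the region fit, which include intron rows. They are not on the scale of the exonic CPM given above. Its coding log2 fold was 3.14 ± 0.40 (edgeR adjusted p = 3.33e-13), which is 8.81 times the input level. USP42 followed at 3.08 ± 0.46 with 178, 35 and 20 coding reads (edgeR adjusted p = 2.26e-10), and USP3 at 2.36 ± 0.38 with 332, 72 and 64 reads (edgeR adjusted p = 3.79e-09). In each of these genes both IP libraries were well above the input. Genes that did not pass in the exonic fit passed here too, in a fit where 51.2% of all coding rows rose, at a median of 1.02. USP14 had a coding log2 fold of 2.04, USP22 of 1.25, USP7 of 1.37, USP8 of 1.38 and OTUD6B of 2.06. The smallest coding folds were those of USP5 (0.22 ± 0.46), USP13 (0.21 ± 0.52) and USP21 (−0.15 ± 0.64), and none of them passed. The coding folds of USP5 and USP13 changed sign with no read filter, to −0.05 and −0.06.

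In 3′UTRs the largest folds were 2.88 ± 0.53 for USP42, 2.44 ± 0.55 for OTUD1 and 2.25 ± 0.56 for USP2, each from 13 input reads. VCPIP1 had 1761, 323 and 481 reads in its 3′UTR and a log2 fold of 1.74 ± 0.37 (edgeR adjusted p = 7.79e-06). The 3′UTR fold of USP34 rested largely on IP replicate 1. Its 196, 15 and 37 reads gave 2.01 ± 0.42 in the fit, but 2.41 in IP replicate 1 and 0.69 in IP replicate 2. The smallest 3′UTR folds were those of OTUD6B (−0.53 ± 0.34), USP49 (−0.55 ± 0.40) and USP48 (−0.75 ± 0.40), and none passed. USP15, with a coding log2 fold of 2.12, had 0.18 ± 0.36 in its 3′UTR.

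Only 10 deubiquitinase 5′UTRs could be tested, and 2 rose (20%, against 33.2% of all genes) while 1 fell (10%, against 4.49%). The VCPIP1 5′UTR had 54, 29 and 18 reads and a log2 fold of 2.15 ± 0.52 (edgeR adjusted p = 1.07e-04), with 1.54 in IP replicate 1 and 2.55 in IP replicate 2. The USP1 5′UTR had 71, 16 and 35 reads and 1.04 ± 0.46 (edgeR adjusted p = 0.0457). The USP48 5′UTR fell, with 22, 5 and 53 reads and −1.22 ± 0.51 (edgeR adjusted p = 0.0316). The USP1 call was lost with DESeq2 and with no read filter, and the USP48 call with DESeq2 and with library-size scaling. The other 7 did not pass, among them USP9X with 25, 12 and 17 reads, USP32 with a log2 fold of −0.14 ± 0.78 and USP36 with −0.28 ± 0.47.

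Introns of USP12, VCPIP1 and USP14 had the lowest folds, at −2.71 ± 0.31, −2.65 ± 0.36 and −2.63 ± 0.32. VCPIP1 had 46 and 15 intron reads in the IP libraries and 335 in the input, so within this gene the coding fold was high where the intron fold was low. The highest intron folds were −0.17 ± 0.62 for OTUD7A, −0.77 ± 0.55 for USP28 and −0.92 ± 0.46 for USP19, and none of them passed. Intron reads close to splice sites took a larger share in the IP. Reads at 5′ splice sites made up 10.5% and 9.02% of the deubiquitinase intron reads in the IP libraries and 4.21% in the input, and those at 3′ splice sites 8.12%, 7.36% and 4.17%. The shares over all genes were close to these, at 8.65%, 8.71% and 4.30% for 5′ splice sites. Non-coding exons of USP10 had 102, 26 and 40 reads and rose by 1.43 ± 0.43 (edgeR adjusted p = 0.00199), and those of USP3 had a log2 fold of 0.26 ± 0.42.

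Within a gene, the coding fold exceeded the 3′UTR fold in 37 of the 41 deubiquitinase genes with both regions tested (90.2%, against 86.8% of 6552 genes). The median difference was 0.74 on the log2 scale, against 0.83 over all genes, so the list lay near the background. The difference does not depend on library scaling and had the same sign in both IP replicates in 38 of the 41 genes, against 5651 of 6552 over all genes. Here too both replicates share the input. OTUD6B had the largest, 2.59, with replicate values of 2.35 and 2.79. USP15 followed at 1.94, then USP14 at 1.68, USP49 at 1.61 and VCPIP1 at 1.40. In 4 genes the 3′UTR fold was the larger. USP1 had a difference of −0.48 (replicates −0.27 and −0.75) and USP24 of −0.14 (replicates −0.03 and −0.24). USP34 (−0.01) and USP53 (−0.31) had replicates of opposite sign. The 5′UTR fold was below the coding fold in 10 of 10 genes, against 1194 of 1971 over all genes, with a median difference of −1.14 against −0.27, and in 2 of the 10, USP1 and USP9X, the replicates differed in sign. Coding folds exceeded intron folds in 43 of 43 genes, a count at the background of 99.5% of 7291 genes, by a median of 3.51 against 3.04.

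**Figure D3:**
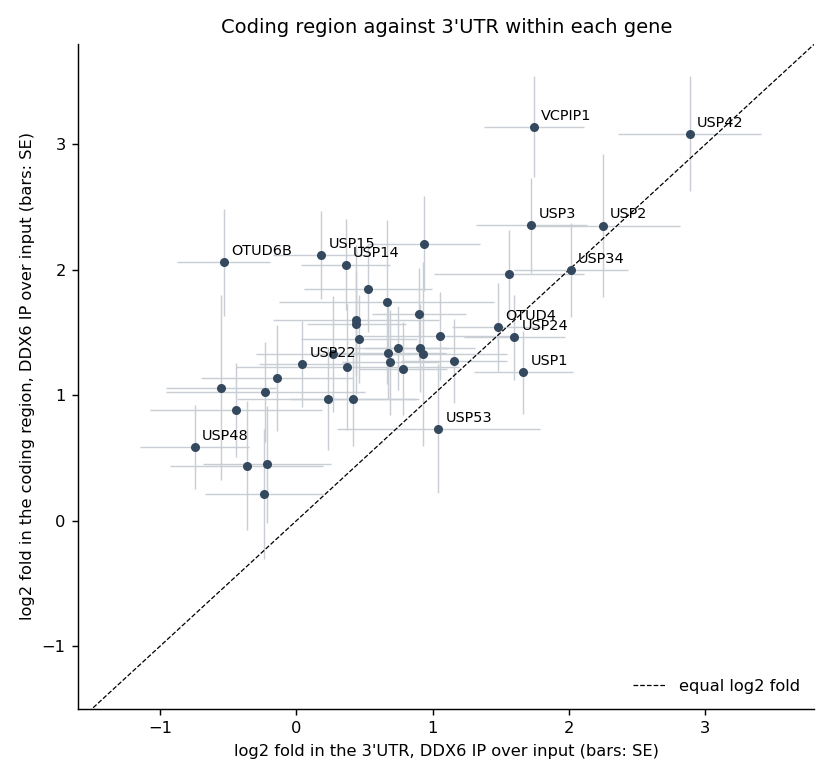
Coding log2 fold against 3′UTR log2 fold (DDX6 IP over input, bars of 1 SE) for the 41 deubiquitinase genes with both regions tested. Points above the dashed line, 37 of 41, have the larger fold in coding sequence. OTUD6B and USP15 lie farthest above it, and USP1 and USP53 lie below it.

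The authors' peak lists, made from the same libraries, give each peak's −log10 p and log2 fold over the input, and a peak was counted as significant when both were at least 3. Significant peaks lay in 27 deubiquitinase genes in the IP replicate 1 list and in 24 in the IP replicate 2 list, of the 48 tested. Over all tested genes, 34.3% and 29.3% had one. The lists held 153 and 93 significant peaks in deubiquitinase genes, which is 19.4% of 787 and 19.5% of 476 peak lines, against 11.5% and 12.9% of all lines. Part of this excess is VCPIP1, a gene included by name, which held 36 and 22 of these significant peaks on 44 and 25 lines. Peaks that abut were counted singly, and merged they made 130 and 86 sites in deubiquitinase genes. Coding sequence held 121 of the 153 (79.1%, against 71.1% of all significant peaks) and 78 of the 93 (83.9%, against 67.0%). The 3′UTRs held 30 and 13 (19.6% and 14.0%, against 18.9% and 17.5%). The 5′UTRs held 2 and 2 (1.31% and 2.15%, against 5.79% and 6.72%), and introns held 0 (against 1.37% and 3.55%). The 5′UTR peaks were those of USP10 and USP36 in the IP replicate 1 list and of USP14 and USP36 in the IP replicate 2 list. All 15 genes called higher in the exonic fit had a significant peak in the IP replicate 1 list and 14 of them in the IP replicate 2 list, the exception being OTUD1. Of the 32 genes tested but not called, 12 and 10 had one, USP36 and USP14 with the most. USP49 and the 10 untested genes had none. Calls and peaks rest on the same reads, so their overlap is not independent evidence. The same overlap over all genes called higher was not computed.

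Peaks were found again only in part. Counting an overlap of at least 1 base on the same strand, 37 of the 153 peaks (24.2%) met a significant peak of the other list, and 33 of the 93 (35.5%), against 22.1% and 33.6% of all significant peaks. Peaks that met one lay in 14 genes. VCPIP1, included by name, held 17 of the 37 and 16 of the 33, but only 36 of the 153 and 22 of the 93. The shares of the other genes are therefore lower than those given, and they were not set against the background. USP15 held 3 and 3 of the peaks that met one, and USP34 and USP16 held 2 and 2 each. IP replicate 2 has fewer reads, and the part of depth in this sharing was not tested.

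**Figure D4:**
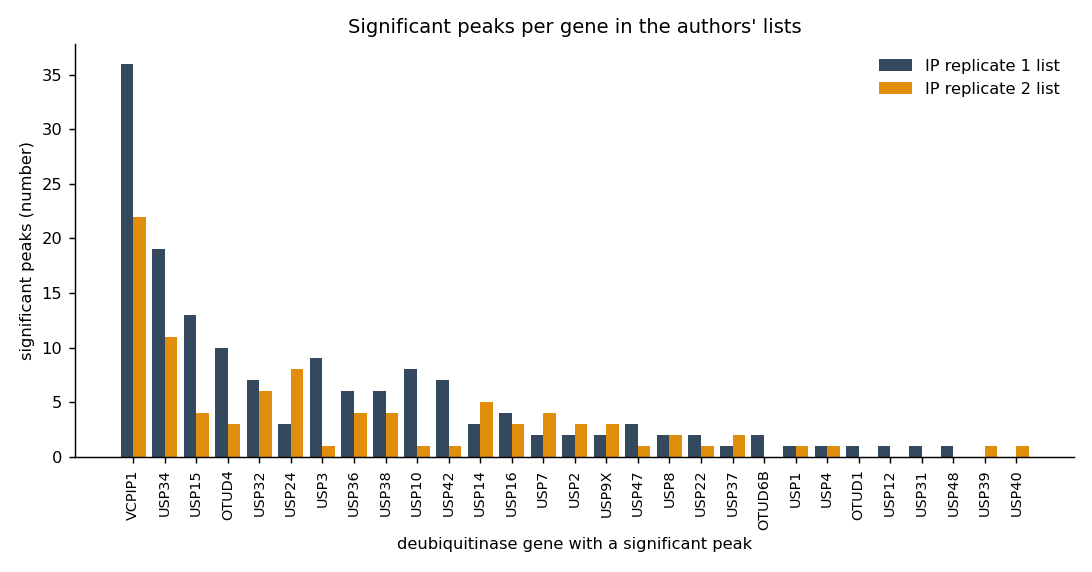
Number of significant peaks per deubiquitinase gene in the IP replicate 1 list (dark) and the IP replicate 2 list (orange), for the 29 genes with a peak in either. VCPIP1 stands highest in both, at 36 and 22, and USP34 is next at 19 and 11.

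By peaks VCPIP1 led both lists, with 36 and 22, which put it at rank 9 of 3965 genes and rank 8 of 3467 genes with a significant peak. With abutting peaks merged, VCPIP1 had 28 and 18 sites. It held 23.5% and 23.7% of the deubiquitinase peaks. USP34 had 19 and 11 peaks, USP15 13 and 4, OTUD4 10 and 3, and USP3 9 and 1. Peak numbers are not scaled by transcript length or read depth. USP34 peaks in the IP replicate 1 list were 14 in coding sequence and 5 in the 3′UTR, whereas its 11 in the IP replicate 2 list were in coding sequence. All peaks of USP15 lay in coding sequence in both lists, and USP32 had 7 and 6, likewise in coding sequence. OTUD4 split its peaks evenly in the IP replicate 1 list, 5 in coding sequence and 5 in the 3′UTR. By log2 fold, the highest deubiquitinase peak of the IP replicate 1 list was in USP32 coding sequence, at chr17:58275623-58275644 (hg19, minus strand), with a log2 fold of 5.26. In the IP replicate 2 list the highest outside VCPIP1 were in USP24 coding sequence, where 3 peaks shared a log2 fold of 5.23. They were chr1:55642049-55642081 and the abutting chr1:55600001-55600007 and chr1:55600008-55600029 (hg19, minus strand). Each of these peaks was significant in 1 list only.

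The authors' list of reproducible peaks held 1587 peaks in 479 genes. Of these, 18 lay in deubiquitinase genes, and all 18 were in VCPIP1, 16 in coding sequence and 2 in the 3′UTR. The median per gene was 2 and the largest number 34, and VCPIP1 ranked 10th, level with 2 other genes. How the authors made this list is not given in the sources used here. Its strongest VCPIP1 peak, at chr8:67578898-67578989 (hg19, minus strand), had a log2 fold of 5.08 and a −log10 p of 39.6 and ranked 191st of the 1587. The next were at chr8:67578761-67578781 (4.94), chr8:67578994-67579016 (4.71) and chr8:67578688-67578723 (4.69), all in coding sequence. The weakest of the 18 had a log2 fold of 3.30 and lay in the 3′UTR.

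The VCPIP1 peaks fell into 3 stretches of the gene, taking peaks less than 5000 bases apart together. The stretch nearest the 5′ end, chr8:67576487-67579238 (2752 bases), held 18 and 14 significant peaks, all coding, and 10 of the 18 reproducible ones. A short middle stretch, chr8:67563720-67563777, held 1 coding peak in each list and 1 reproducible one. The stretch at the 3′ end, chr8:67543562-67547539, held 17 and 7 peaks, of which 9 and 3 were in the 3′UTR, and 7 reproducible ones. Median log2 folds were 4.02 and 4.48 in the 5′ stretch and 3.69 and 3.23 in the 3′ stretch. In both lists the median peak was higher in the 5′ stretch, which held coding peaks only. Over all VCPIP1 peak lines, 3′UTR lines had lower median log2 folds (3.14 and 3.23) than coding lines (4.02 and 4.08). The medians of the stretches therefore mix position along the gene with transcript region. The 3′ stretch also held 8 and 4 coding peaks. In the IP replicate 1 list these ran from 3.41 to 4.42, within the 3.01 to 4.71 of the 5′ stretch. In the IP replicate 2 list they reached 3.42 at most, below the lowest peak of the 5′ stretch at 3.52. This difference between the lists was not tested. No peak line of VCPIP1 was annotated to its 5′UTR, although its 5′UTR reads rose in the region fit.

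**Figure D5:**
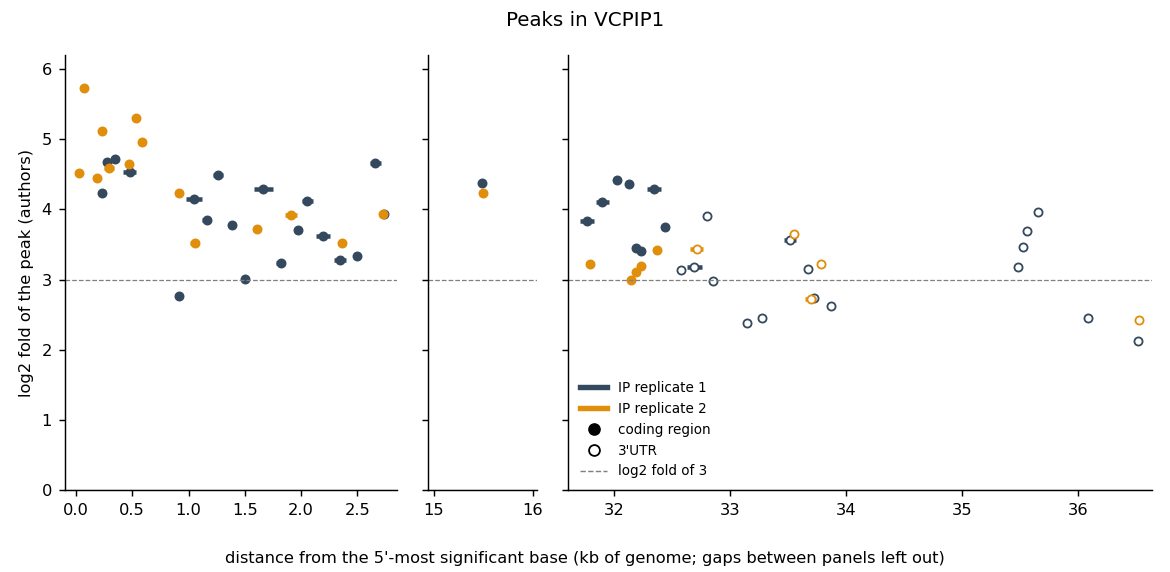
Log2 fold of VCPIP1 peak lines in the authors' lists (bars span each peak, points mark its centre; filled, coding; open, 3′UTR) against the distance along the gene from its 5′-most significant base, in kb, with the gaps between the 3 stretches left out. Most peaks lie above a log2 fold of 3 (dashed), the highest at 5.73 in the IP replicate 2 list near the 5′ end, and most peaks below the dashed line are in the 3′UTR.

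Other genes of the ubiquitin system were counted in the same exonic fit, in which 16.7% of all genes rose and 11.4% fell, and no test of the difference between lists was run. Of 29 tested genes in a list of deubiquitinases and related proteins outside the naming rule, 5 rose (17.2%) and 2 fell (6.90%). Their median exonic log2 fold was −0.05. PSMD7 and PSMD14 stand both in this list and among the proteasome subunits. USPL1, a SUMO protease related to the USP class, had 680, 147 and 93 reads and a log2 fold of 2.25 ± 0.29 (edgeR adjusted p = 1.94e-09). TNFAIP3, the A20 protein that restrains NF-kappa-B, had 2.20 ± 0.29 (edgeR adjusted p = 5.27e-09) and YOD1, an OTU enzyme that works with VCP, 1.20 ± 0.27. Of 33 ubiquitin-activating and ubiquitin-conjugating enzymes 3 rose (9.09%) and 4 fell (12.1%), with a median of −0.33. UBE2R2 rose by 1.41 on the log2 scale, and UBE2G2 and UBE2A fell by 1.41 and 1.34. Among 12 cofactors and partners of deubiquitinases, ATXN7 of the SAGA deubiquitinase module rose (0.86) and ENY2 of the same module fell (−0.67). Of 36 proteasome subunits none rose, with none higher at an unadjusted p under 0.05 in edgeR, and PSMD11 (−1.04) and PSMB2 (−0.78) fell (5.56%).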

How the data were processed

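Reads were counted per gene and region (coding sequence, UTRs, introns, non-coding exons) by the authors and deposited as raw counts. The submitters' processing notes name cutadapt, UMI-tools, STAR, SAMtools and the build hg19, with no versions or settings. The authors' peak lists hold −log10 p-values and log2 folds over input, per the files' values; for read assignment, strand use and the reproducible list, methods were not found in the labels or headers.

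Gene names came from the deposited lists and a RefSeq name table (28576 of 29754 Ensembl identifiers matched; 2 members were named from the peak lists). Exonic counts were tested with edgeR 4.0.16 (R 4.3.3; TMM, quasi-likelihood test, Benjamini-Hochberg over all genes; call at adjusted p under 0.05), IP against input, for genes that reached 10 reads in 2 or more libraries. The 2 IP libraries leave 1 residual degree of freedom. A like fit took 28825 gene regions. SE is the log2 fold over the square root of F. Scripts were tested on simulated data. Alternatives were DESeq2 1.42.0, library-size scaling, other filters, other read classes and other peak thresholds.

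The genes and lists were chosen with earlier results of these data known. Named with values were VCPIP1, called genes with the largest folds, the smallest p-values of each list, the extremes of each region and the genes with most peaks; USP7, USP8, USP10, USP14, USP15, USP22 OTUD6B-AS1 and others were added after their values were seen. No sequences are printed.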

Additional observations from a re-analysis of the deposited data

How the results depend on the processing

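Fold directions depended most on scaling and on intronic reads. Scaling by library size alone moved the median gene by 1.24 on the log2 scale; 39 of 48 deubiquitinase genes were then higher (81.25%, against 67.3% of all genes) and 0 lower (against 1.36%), with a median of 1.63. It turned USP30 (1.19), USP22 (0.98), USP35 (0.92), OTUD6B (0.85), USP5 (0.83), USP21 (0.78), USP48 (0.73), OTUD5 (0.73), USP45 (0.69), USP13 (0.56), OTUD3 (0.51) and USP49 (0.31) positive, and likewise the coding region of USP21 (0.49), the 5′UTRs of USP32 (0.49) and USP36 (0.36), the 3′UTRs of OTUD6B (0.11) and USP49 (0.085) and the OTUD7A intron (0.47). It called 4 5′UTRs higher and 0 lower, and 27 3′UTRs higher. Adding intronic reads gave 9 genes called higher, 9 lower and a median of −0.12; 7 of the 15 genes called higher stayed so. Values then turned negative for USP54 (−1.04), USP25 (−0.85), USP12 (−0.81), USP4 (−0.78), USP32 (−0.57), USP40 (−0.47), USP31 (−0.43), USP15 (−0.42), USP3 (−0.41), USP20 (−0.41), USP10 (−0.40), USP53 (−0.34), USP47 (−0.33), USP37 (−0.27), USP39 (−0.25), USP46 (−0.11), OTUD7B (−0.075) and USP34 (−0.050), and positive for USP22 (0.16), USP5 (0.12) and USP21 (0.10). DESeq2 gave 4 higher and 0 lower with a median of 0.35, 1 5′UTR higher and 0 lower, 9 3′UTRs higher, and −0.062 for USP46. With no read filter, 11 of 54 genes were higher (20.4%, against 4.91% of 26782 genes, most of which fail the read filter) and 0 lower. In that setting the deubiquitinase median was 0.41, 1 5′UTR was higher and 2 lower, and 9 3′UTRs were higher. The coding folds of USP5 and USP13 were then −0.054 and −0.064. A minimum of 30 reads gave 10 of 42 higher (23.8%, against 13.8%) and 0 lower, a median of 0.31, 1 5′UTR higher and 0 lower, a coding minus 3′UTR median of 0.66, −0.059 for USP46 and −0.022 for USP4. Coding and 3′UTR reads alone gave −0.021 for USP46. The cause of these changes was not tested. Leaving out either IP library leaves no residual degree of freedom, so these are values with no test: the exonic median ranged from 0.32 to 0.40, the coding minus 3′UTR median from 0.69 to 0.76, and the peak number from 93 to 153. A log2 fold of at least 1 gave 406 and 143 significant peaks, and a −log10 p of at least 5 gave 45 in the IP replicate 2 list. No paired analysis was possible because there is 1 input library. Depth limits IP replicate 2 most, with 4883 exonic deubiquitinase reads against 21166 in IP replicate 1.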
